A study of Rattus norvegicus with 68 samples.

Results

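Ribosome biogenesis genes were followed in the nasal epithelium of rats that inhaled formaldehyde. They comprised Myc, a transcription factor that drives growth, and genes of the factors that transcribe, cut, modify and assemble ribosomal RNA. The list held 49 symbols, and 48 of them were measured among the 14217 genes named by the array. Npm1 was left out because its probe sets also name a pseudogene. Where a gene had several probe sets, the one with the highest mean signal stood for it. The genes comprised Myc, 4 subunits of RNA polymerase I, 4 box C/D and 4 box H/ACA small nucleolar ribonucleoprotein (snoRNP) proteins, 4 other nucleolar proteins, 16 factors of the small ribosomal subunit and 15 of the large one.

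Male F344/CrlBR rats, 8 weeks old when the study began, breathed formaldehyde with the whole body in the chamber, 6 h a day and 5 days a week, and RNA of their nasal epithelial cells was hybridised to Rat230_2 arrays, 1 animal per array. The 68 arrays formed 17 groups of 4 animals, which had 0, 0.7 or 2 ppm or else 6, 10 or 15 ppm formaldehyde at 5 d and at 13 w, and the same doses without 0 ppm at 4 w. No 0 ppm arrays of 4 w were used here, so the reference at 4 w was the 0.7 ppm group, which was itself exposed. Cells were freed with proteases from a section of the nose that holds mainly transitional and some respiratory epithelium. The 0 ppm titles carry a code starting with ACO, the exposed titles carry HCHO, and any batch behind these codes cannot be told apart from dose.

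Ribosomes are built mainly in the nucleolus, where RNA polymerase I makes a long precursor of ribosomal RNA. Box C/D and box H/ACA snoRNPs modify that precursor, the first by ribose methylation and the second by pseudouridylation, while large sets of assembly factors fold and cut it into the small and the large subunit. Growing and dividing cells, such as those of a regenerating airway lining, need many new ribosomes, and MYC is known to activate many genes of this pathway.

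The median log2 signal of an array was 6.82 to 6.96, and pairs of arrays within a group had correlations of 0.977 to 0.996 over the probe sets. Changes are differences of log2 signal ± SE from a limma fit of all 17 groups, so the SE rests on a spread pooled over the groups. A gene was called at a Benjamini-Hochberg adjusted p under 0.05 over all 14217 genes, and n was 4 animals in every group. In these mixed cell samples fewer cells of a type and less RNA per cell cannot be told apart. The labelled tissue was checked against markers: basal keratin genes were high (group means of Krt5 11.8 to 13.1), as were ciliated markers (Foxj1 9.65 to 10.7). Olfactory markers were high as well, with group means of 11.2 to 13.0 for Omp, although the protocol says that olfactory lining was discarded. Their part in the results was not tested.

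The number of ribosome biogenesis genes called higher grew from 6 to 15 ppm at every time. After 5 d, 0 of 48 were called at 0.7 ppm and 0 at 2 ppm, where 0.0% and 0.0281% of all genes were called in either direction. At 6 ppm 20 of 48 were called higher, against 3.54% of all genes. At 10 ppm the count was 43, against 9.75%, and at 15 ppm it was 45, against 18.3%. No gene of the list was called lower at any of these 3 doses, against 5.3%, 5.79% and 19.5% of all genes. The median change of the 48 genes was 0.30 at 6 ppm, 0.46 at 10 ppm and 0.65 at 15 ppm, while that of all genes lay within -0.02 and 0.01 at every dose and time.

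After 13 w, 0 were called at 0.7 and at 2 ppm, against 0.0% and 0.00703% of all genes. At 6 ppm 32 of 48 were called higher, against 7.54%; at 10 ppm 46, against 13.8%; and at 15 ppm all 48, against 23.5%. The medians at those doses were 0.35, 0.63 and 0.83. The count at 6 ppm was 16 with the RNA integrity number as a covariate, which was 8.43 ± 0.15 (SD, n = 4) on the 6 ppm arrays of 13 w and 7.57 ± 0.23 (n = 3) on those of 0 ppm. At 4 w, against 0.7 ppm, 0 were called at 2 ppm (0.0211% of all genes), 14 at 6 ppm (2.05%), 41 at 10 ppm (9.03%) and 47 at 15 ppm (21.3%). All of these calls were upward, with medians of 0.29, 0.44 and 0.75 from 6 to 15 ppm. Among all genes 4.68%, 12.5% and 20.6% were called lower at these doses at 13 w and 1.24%, 5.75% and 16.1% at 4 w. At an unadjusted p under 0.05, 6 of the 48 genes passed at 2 ppm after 5 d, 1 at 4 w and 4 at 13 w, against 5.76%, 8.16% and 10.2% of all genes. At 0.7 ppm 0 passed at 5 d and 1 at 13 w, against 7.81% and 4.4%.

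**Figure D1:**
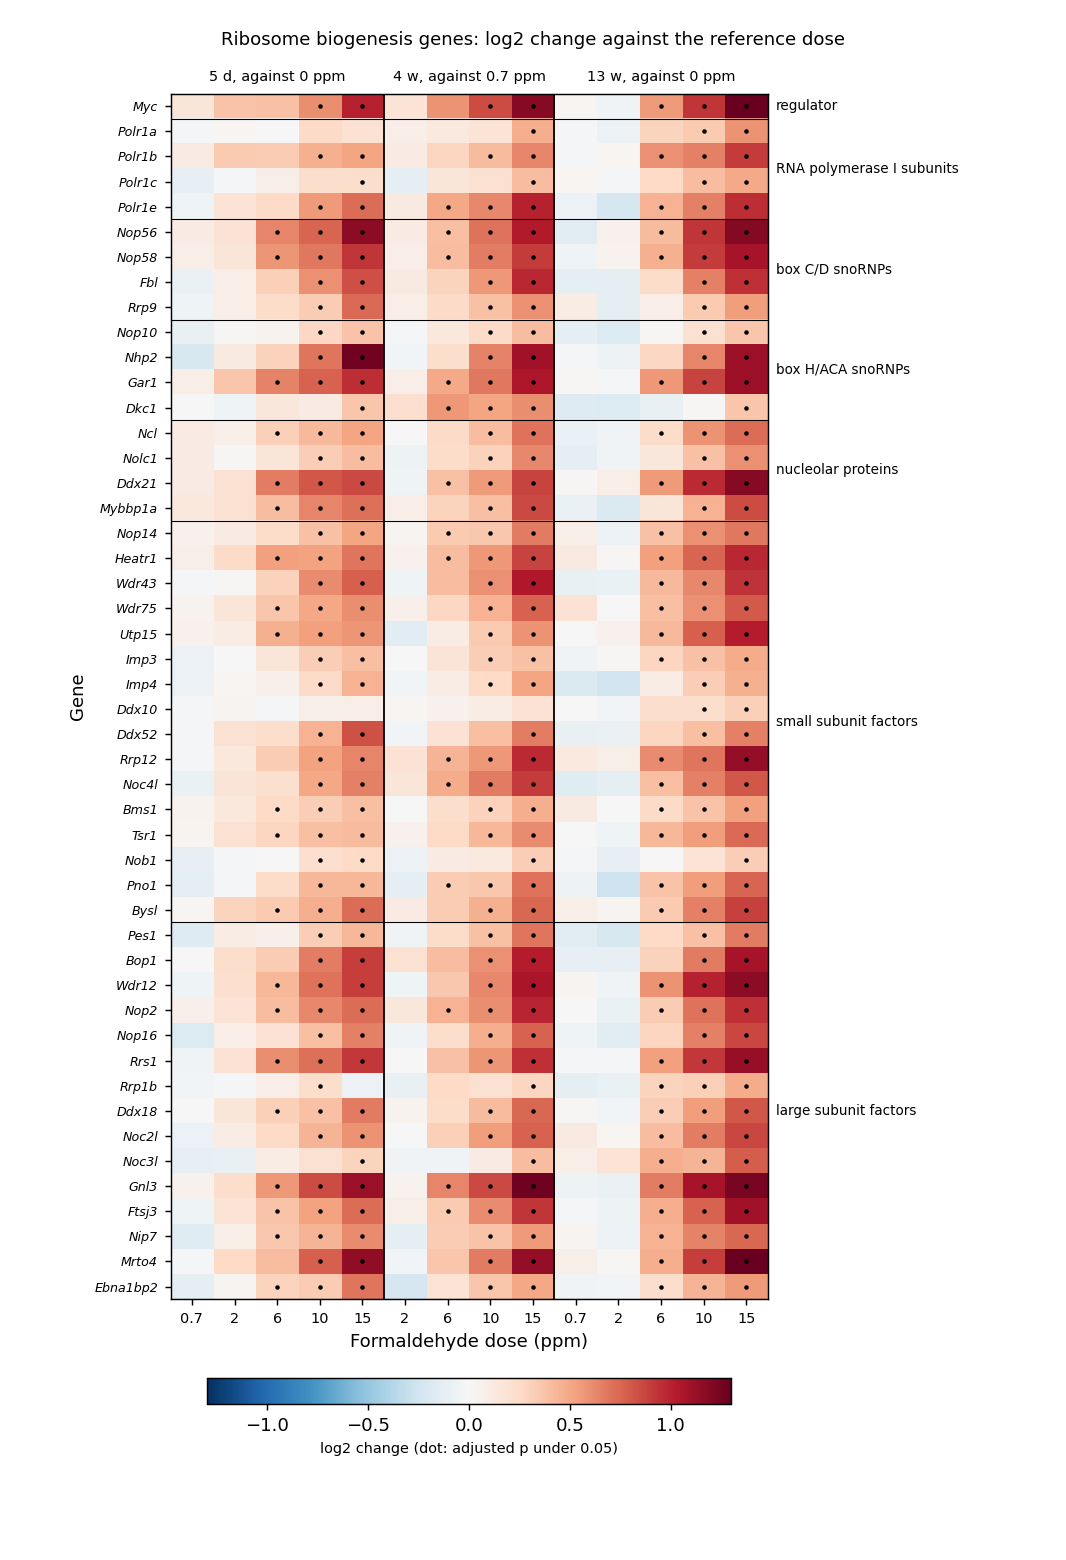
Log2 change of each of the 48 ribosome biogenesis genes (rows, grouped by role) at each formaldehyde dose in ppm (columns), after 5 d and 13 w against 0 ppm and at 4 w against 0.7 ppm; a dot marks an adjusted p under 0.05. The columns darken from 6 to 15 ppm in nearly every row, and the dots number 20, 43 and 45 at 5 d, 14, 41 and 47 at 4 w, and 32, 46 and 48 at 13 w.

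The separation of single arrays followed the same order of doses. All 4 exposed arrays lay above all 4 reference arrays for 16, 37 and 42 of the 48 genes at 6, 10 and 15 ppm after 5 d, against 5.82%, 9.76% and 15.7% of all genes. After 13 w the counts were 36, 47 and 48, against 9.66%, 15.3% and 22.9%. At 4 w they were 27, 40 and 47, against 4.63%, 10.4% and 19.7%. The group mean rose at every step from 2 through 6 and 10 to 15 ppm in 40 of the genes at 5 d, 46 at 4 w and 47 at 13 w. Among all genes the same held for 11.0%, 17.4% and 19.9%.

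Myc was higher at 10 and 15 ppm at each time. At 5 d its 4 log2 signals were 9.04, 9.05, 8.83 and 8.54 at 0 ppm, 9.36, 9.07, 9.1 and 8.57 at 0.7 ppm and 9.26, 9.15, 9.17 and 9.37 at 2 ppm. They were 8.83, 9.51, 9.22 and 9.44 at 6 ppm, 9.05, 9.81, 9.49 and 9.54 at 10 ppm and 10.16, 10.21, 9.77 and 9.38 at 15 ppm. All arrays of 2 ppm and of 15 ppm lay above the highest of 0 ppm, the lowest of 10 ppm was level with it at 9.05, and 0.7 and 6 ppm overlapped 0 ppm. The change was 0.37 ± 0.18 (adjusted p = 0.863) at 2 ppm and 0.38 ± 0.18 (adjusted p = 0.188) at 6 ppm, neither called. Myc then rose by 0.60 ± 0.18 (adjusted p = 0.0161) at 10 ppm and by 1.01 ± 0.18 (adjusted p = 8.95e-06) at 15 ppm, a 2.02-fold increase.

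At 4 w Myc read 8.92, 8.35, 8.68 and 8.85 at 0.7 ppm, 8.97, 8.42, 8.82 and 9.3 at 2 ppm and 9.16, 9.23, 9.04 and 9.71 at 6 ppm. It read 9.29, 9.49, 9.56 and 9.84 at 10 ppm and 9.87, 9.54, 10.19 and 9.95 at 15 ppm. From 6 ppm upward no array overlapped the 0.7 ppm group, while 2 ppm overlapped it. The change was 0.58 ± 0.18 (adjusted p = 0.0628) at 6 ppm, 0.84 ± 0.18 (adjusted p = 6.58e-04) at 10 ppm and 1.19 ± 0.18 (adjusted p = 4.48e-07) at 15 ppm, of which only the last 2 were called.

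At 13 w the Myc signals were 8.97, 8.81, 9.08 and 9.11 at 0 ppm, 9.08, 8.95, 9.11 and 8.92 at 0.7 ppm and 8.89, 8.97, 9.02 and 8.92 at 2 ppm. They were 9.73, 9.79, 9.37 and 9.27 at 6 ppm, 9.82, 10.14, 9.77 and 9.93 at 10 ppm and 9.79, 10.31, 10.65 and 10.36 at 15 ppm. The arrays of 0.7 and 2 ppm fell within the 0 ppm range, and from 6 ppm no array overlapped it. Myc rose by 0.55 ± 0.18 (adjusted p = 0.0374) at 6 ppm, 0.93 ± 0.18 (adjusted p = 7.47e-05) at 10 ppm and 1.29 ± 0.18 (adjusted p = 4.08e-08) at 15 ppm, a 2.44-fold increase at the top dose. Its largest signal in the series, 10.65, was on an array of 15 ppm at 13 w.

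**Figure D2:**
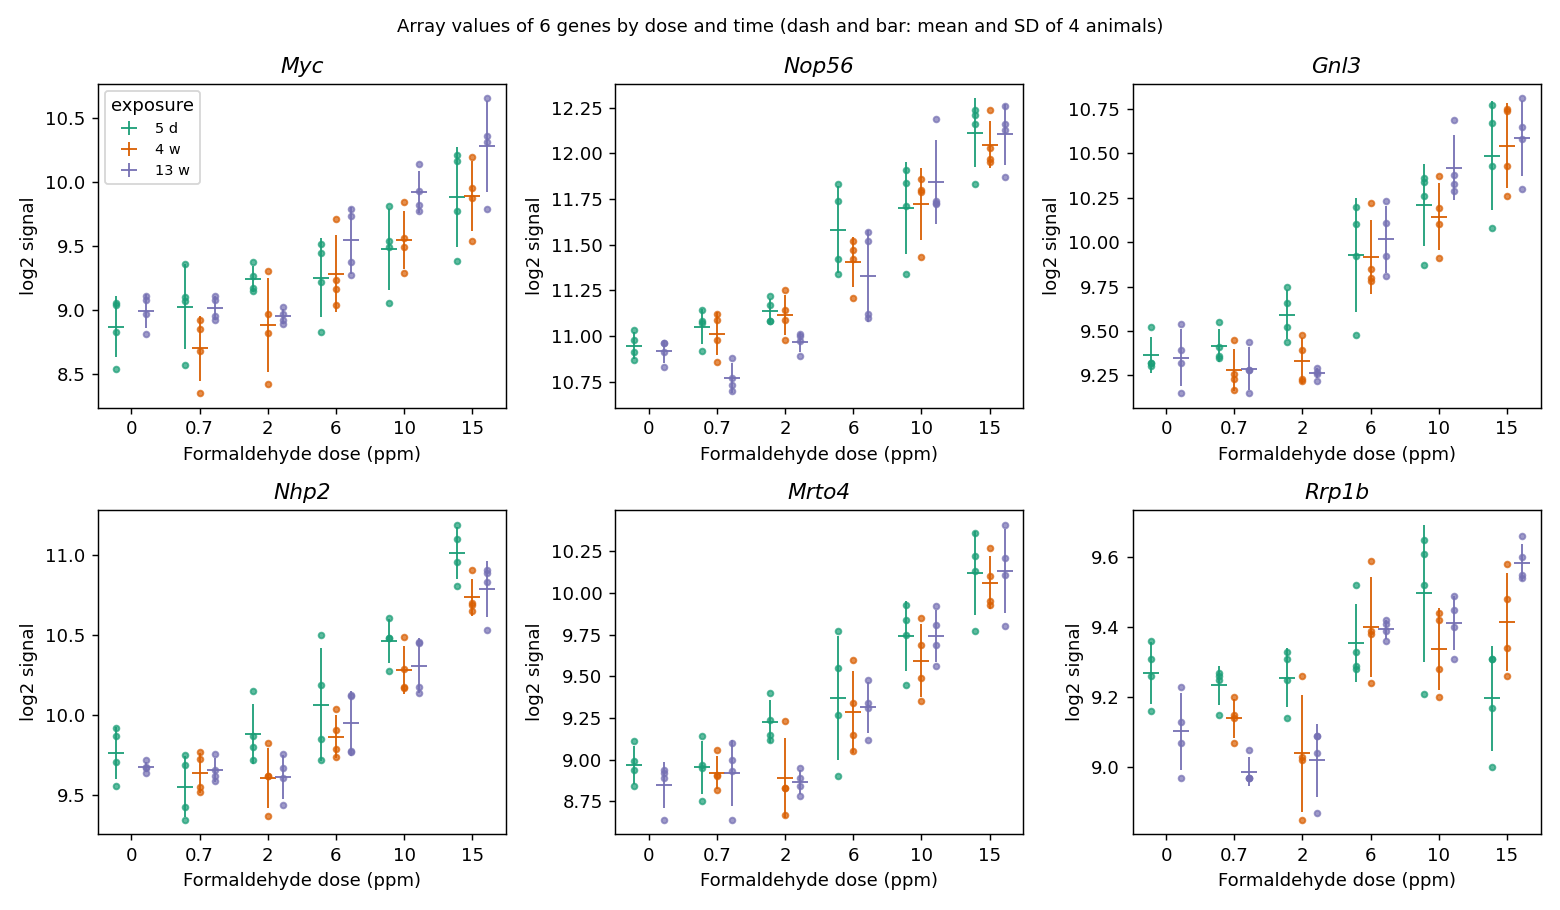
Log2 signal of Myc, Nop56, Gnl3, Nhp2, Mrto4 and Rrp1b on each array (points, 1 animal each) by formaldehyde dose in ppm, coloured by exposure time, with the mean (dash) and SD (bar) of 4 animals. The group means of the first 5 genes climb from 6 through 10 to 15 ppm at all 3 times, whereas the 4 Rrp1b arrays of 15 ppm at 5 d, at 9.31, 9.31, 9.17 and 9.0, lie within or below the range of 0 ppm.

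Because so many of these genes rose at 15 ppm, their promoters were read for the E-box, the letters CACGTG to which MYC with its partner MAX binds. RefSeq promoters of the GRCr8 build, from 250 bases before to 50 bases after the gene start, were matched for 43 of the 48 genes and for 11733 genes of the array. CACGTG, which reads the same on both strands, was in 14 of the 43 (32.6%) and in 8.92% of the array's promoters. CCGGAAG, a site of ETS factors searched on both strands, was in 18 (41.9%) against 15.1%. The site of NRF1, GCGC followed by AT and GCGC and its own reverse complement, was in 1 (2.33%) against 1.62%; these searched letters do not overlap one another. A match describes the letters of the window and not binding. The promoters of 5 genes named in the results below and holding an E-box are shown, and that of Nop56, which has none and a change at 15 ppm of 1.17 after 5 d, for comparison. They run 5′ to 3′ on the gene's strand, with the E-boxes in capitals. Counted from the gene start, the E-box begins at -25 in Gnl3, -156 and -1 in Mybbp1a, 3 in Rrp12, 30 in Ebna1bp2 and -13 in Ddx18.
Gnl3 (chr16:6219733-6220032, minus strand): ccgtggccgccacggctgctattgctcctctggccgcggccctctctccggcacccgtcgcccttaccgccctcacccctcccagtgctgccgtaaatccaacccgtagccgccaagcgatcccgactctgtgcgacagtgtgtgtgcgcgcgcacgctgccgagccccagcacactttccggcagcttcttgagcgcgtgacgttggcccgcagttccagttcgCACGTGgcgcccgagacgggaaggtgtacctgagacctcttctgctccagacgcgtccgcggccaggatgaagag
Mybbp1a (chr10:57555208-57555507, plus strand): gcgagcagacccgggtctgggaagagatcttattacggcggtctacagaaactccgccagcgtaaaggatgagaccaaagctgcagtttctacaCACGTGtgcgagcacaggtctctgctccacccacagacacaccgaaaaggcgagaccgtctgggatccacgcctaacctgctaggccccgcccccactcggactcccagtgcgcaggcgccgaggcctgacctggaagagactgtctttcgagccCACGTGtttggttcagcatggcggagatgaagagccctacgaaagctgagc
Rrp12 (chr1:250655269-250655568, minus strand): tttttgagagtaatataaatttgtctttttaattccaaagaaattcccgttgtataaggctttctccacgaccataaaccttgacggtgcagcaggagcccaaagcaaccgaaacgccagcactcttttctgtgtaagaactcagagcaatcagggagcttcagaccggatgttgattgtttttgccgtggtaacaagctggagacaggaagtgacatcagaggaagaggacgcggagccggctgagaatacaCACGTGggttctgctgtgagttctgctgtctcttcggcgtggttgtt
Ebna1bp2 (chr5:137433284-137433583, plus strand): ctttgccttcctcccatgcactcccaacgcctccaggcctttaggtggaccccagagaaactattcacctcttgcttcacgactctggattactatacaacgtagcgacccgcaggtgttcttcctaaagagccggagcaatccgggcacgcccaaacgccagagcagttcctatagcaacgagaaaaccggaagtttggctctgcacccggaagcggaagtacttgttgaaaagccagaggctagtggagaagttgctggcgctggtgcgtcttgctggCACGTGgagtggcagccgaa
Ddx18 (chr13:35295923-35296222, minus strand): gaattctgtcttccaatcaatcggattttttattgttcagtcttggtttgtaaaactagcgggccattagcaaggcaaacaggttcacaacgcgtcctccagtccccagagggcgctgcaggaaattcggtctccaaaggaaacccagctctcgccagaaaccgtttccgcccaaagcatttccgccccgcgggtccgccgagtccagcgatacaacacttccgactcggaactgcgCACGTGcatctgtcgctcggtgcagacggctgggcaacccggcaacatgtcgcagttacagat
Nop56 (chr3:137929929-137930228, plus strand): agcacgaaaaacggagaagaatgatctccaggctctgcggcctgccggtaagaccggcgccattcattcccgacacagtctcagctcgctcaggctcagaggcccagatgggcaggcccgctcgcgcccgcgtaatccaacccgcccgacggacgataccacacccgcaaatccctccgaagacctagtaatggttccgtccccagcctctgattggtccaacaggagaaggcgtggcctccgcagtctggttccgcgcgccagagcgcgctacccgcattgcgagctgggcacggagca

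Genes with and without the E-box changed by like amounts. At 15 ppm the median change of the 14 genes with it and the 29 without was 0.66 and 0.59 at 5 d, 0.75 and 0.67 at 4 w, and 0.80 and 0.80 at 13 w. Mybbp1a was the one gene with 2 E-boxes, and its change is given with the nucleolar proteins.

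Subunits of RNA polymerase I, which makes the ribosomal RNA precursor, differed in size of change. At 15 ppm 3 of 4 were called higher at 5 d, and all 4 at 4 w and 13 w. The shares of all genes were 18.3%, 21.3% and 23.5% at the 3 times. Polr1e, a subunit that joins the core enzyme in initiation and elongation, read 7.96, 7.92, 7.8 and 7.62 at 0 ppm and 8.61, 8.96, 8.51 and 8.13 at 15 ppm at 5 d. All its 15 ppm arrays were above those of 0 ppm, by 0.73 ± 0.12 (adjusted p = 2.29e-06), and it rose by 1.00 ± 0.12 (adjusted p = 1.68e-09) at 4 w and 0.95 ± 0.12 (adjusted p = 2.87e-09) at 13 w. Polr1b, the second-largest subunit, read 7.74, 7.72, 7.73 and 7.78 at 0 ppm and 8.52, 8.48, 8.15 and 8.19 at 6 ppm after 13 w, with no overlap, and rose by 0.59 ± 0.12 (adjusted p = 2.7e-04). Polr1a, the largest subunit, was among the genes that moved least at 5 d. It read 7.0, 6.97, 7.02 and 6.98 at 0 ppm and 7.29, 7.38, 7.14 and 6.97 at 15 ppm, so that 1 exposed array lay at the lower edge of the reference range, and its change of 0.20 ± 0.11 (adjusted p = 0.152) was not called. At 13 w Polr1a read 6.77, 6.9, 6.94 and 6.89 at 0 ppm and 7.19, 7.52, 7.63 and 7.49 at 15 ppm, and rose by 0.58 ± 0.11 (adjusted p = 1.23e-05) without overlap. Polr1c, shared with RNA polymerase III, rose by 0.22, 0.40 and 0.50 at the 3 times.

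All 4 box C/D proteins rose at 10 and at 15 ppm at every time. At 10 ppm 9.75%, 9.03% and 13.8% of all genes were called higher at 5 d, 4 w and 13 w, and at 15 ppm 18.3%, 21.3% and 23.5%. Nop56, a scaffold of these particles, read 10.87, 10.98, 11.03 and 10.91 at 0 ppm and 11.34, 11.74, 11.42 and 11.83 at 6 ppm at 5 d. It read 11.34, 11.84, 11.71 and 11.91 at 10 ppm and 12.24, 12.21, 12.16 and 11.83 at 15 ppm. None of these exposed arrays overlapped 0 ppm, and the change grew from 0.64 ± 0.11 (adjusted p = 1.8e-04) through 0.75 ± 0.11 (adjusted p = 1.5e-06) to 1.17 ± 0.11 (adjusted p = 1.54e-12), a 2.24-fold rise at 15 ppm. At 4 w Nop56 read 10.98, 10.86, 11.12 and 11.09 at 0.7 ppm and 11.97, 11.95, 12.24 and 12.03 at 15 ppm, a rise of 1.03 ± 0.11 (adjusted p = 7.86e-11). At 13 w it read 10.83, 10.96, 10.91 and 10.96 at 0 ppm and 11.87, 12.13, 12.26 and 12.16 at 15 ppm, a rise of 1.19 ± 0.11 (adjusted p = 4.75e-13). The arrays of 15 ppm were thus above the reference at all 3 times. Nop58, the partner of Nop56, rose by 0.58 ± 0.09, 0.69 ± 0.09 and 0.93 ± 0.09 at 6, 10 and 15 ppm after 5 d and by 1.07 ± 0.09 at 15 ppm after 13 w. Fibrillarin (Fbl), the methyltransferase itself, was called at 10 but not at 6 ppm at each time and rose at 15 ppm by 0.84, 0.98 and 0.95 at 5 d, 4 w and 13 w. Rrp9, a protein of the U3 particle, rose by 0.74, 0.60 and 0.54.

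The box H/ACA proteins, which carry out pseudouridylation and are shared with telomerase, differed in the dose at which they were called. At 6 ppm 1, 2 and 1 of the 4 were called higher at 5 d, 4 w and 13 w, at 10 ppm 3, 4 and 3, and at 15 ppm all 4. Of all genes 3.54%, 2.05% and 7.54% were called higher at 6 ppm and 9.75%, 9.03% and 13.8% at 10 ppm. At 15 ppm the shares were 18.3%, 21.3% and 23.5%. Nhp2 read 9.87, 9.92, 9.71 and 9.56 at 0 ppm, 9.72, 10.5, 9.85 and 10.19 at 6 ppm, 10.28, 10.48, 10.61 and 10.48 at 10 ppm and 10.96, 11.19, 11.1 and 10.81 at 15 ppm after 5 d. Arrays of 6 ppm overlapped 0 ppm, those of 10 ppm did not, and those of 15 ppm lay above all of 10 ppm. Nhp2 rose by 1.25 ± 0.12 (adjusted p = 1.54e-12) at 15 ppm, 2.38-fold and the largest change of the 48 genes at 5 d, while at 6 ppm its change of 0.30 ± 0.12 (adjusted p = 0.106) was not called. At 15 ppm it rose by 1.09 ± 0.12 at 4 w and 1.11 ± 0.12 at 13 w. Gar1 was called at a lower dose: after 5 d it read 9.0, 8.93, 8.89 and 8.92 at 0 ppm and 9.24, 9.72, 9.62 and 9.74 at 6 ppm, all above the reference. Gar1 rose by 0.65 ± 0.12 (adjusted p = 2.01e-04) at 6 ppm and by 0.96 ± 0.12 at 15 ppm at 5 d, and at 6 ppm it was called at 4 w and 13 w too (0.49 ± 0.12 and 0.57 ± 0.12). Dkc1, the pseudouridine synthase dyskerin, was called at 6 ppm at 4 w but at neither 6 nor 10 ppm at 13 w. At 4 w it read 9.45, 9.37, 8.72 and 9.61 at 0.7 ppm and 9.98, 9.67, 9.73 and 10.02 at 6 ppm, without overlap and with 1 low reference array at 8.72, and rose by 0.56 ± 0.13 (adjusted p = 0.00642). At 13 w it changed by -0.10 at 6 ppm and 0.01 at 10 ppm, neither called, and rose by 0.36 ± 0.13 (adjusted p = 0.02) at 15 ppm. Nop10 rose by 0.37, 0.40 and 0.36 at 15 ppm.

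All 4 other nucleolar proteins rose at 10 and 15 ppm at every time. Of all genes 9.75%, 9.03% and 13.8% were called higher at 10 ppm at 5 d, 4 w and 13 w. At 15 ppm the shares were 18.3%, 21.3% and 23.5%. Ddx21, a nucleolar RNA helicase, had the largest change of the 48 genes at 6 ppm after 5 d. It read 10.38, 10.12, 10.24 and 10.2 at 0 ppm, 10.58, 10.93, 10.91 and 11.17 at 6 ppm and 11.24, 11.15, 11.22 and 10.77 at 15 ppm, with no overlap at either dose. Ddx21 rose by 0.66 ± 0.11 (adjusted p = 4.96e-05) at 6 ppm and 0.86 ± 0.11 (adjusted p = 3.39e-09) at 15 ppm after 5 d, and by 1.18 ± 0.11 (adjusted p = 1.61e-13) at 15 ppm after 13 w. A dimmer probe set of Ddx21 changed by 0.05, 0.65 and 0.74 at 15 ppm at 5 d, 4 w and 13 w, so the 5 d rise rests on the probe set used. Nucleolin (Ncl), an abundant RNA-binding protein of the nucleolus, read 12.11, 12.21, 12.06 and 12.22 at 0.7 ppm and 12.8, 12.82, 12.96 and 12.85 at 15 ppm at 4 w, without overlap, and rose by 0.71 ± 0.08 (adjusted p = 4.53e-10). Mybbp1a, a nucleolar regulator of transcription whose promoter with 2 E-boxes is shown above, rose at 15 ppm by 0.72, 0.86 and 0.85 at 5 d, 4 w and 13 w. Nolc1, a chaperone of snoRNPs, rose by 0.40, 0.63 and 0.59 on the probe set used, and a second probe set of it gave 1.5, 1.5 and 1.74. Its dimmer probe sets gave 0.945, 0.116 and 0.954, and -0.002, -0.075 and -0.122, so the size depended on the probe set.

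Of the 16 small subunit factors 15, 15 and 16 rose at 15 ppm at 5 d, 4 w and 13 w, with medians of 0.54, 0.67 and 0.74. The shares of all genes called higher were 18.3%, 21.3% and 23.5%. Members of the early complex that binds the nascent precursor rose together. Heatr1 rose by 0.53 ± 0.12 (adjusted p = 0.00271) at 6 ppm and 0.70 ± 0.12 (adjusted p = 3.24e-06) at 15 ppm after 5 d, and Wdr43 by 0.78 ± 0.13, 1.04 ± 0.13 and 0.94 ± 0.13 at 15 ppm at the 3 times. Utp15 of the same complex read 9.08, 8.82, 9.18 and 9.13 at 0 ppm and 9.91, 10.03, 10.32 and 10.02 at 15 ppm after 13 w, without overlap, and rose by 1.02 ± 0.10 (adjusted p = 1.23e-12). Rrp12, needed for maturation and export of subunits and with an E-box in its printed promoter, read 7.53, 7.47, 7.44 and 7.54 at 0 ppm after 13 w. It read 8.17, 8.13, 8.08 and 8.05 at 6 ppm and 8.32, 8.88, 8.78 and 8.58 at 15 ppm. Neither dose overlapped 0 ppm, and Rrp12 rose by 0.61 ± 0.12 (adjusted p = 1.47e-04) at 6 ppm and 1.14 ± 0.12 (adjusted p = 2.98e-12) at 15 ppm. Other probe sets of Rrp12 gave smaller changes of 0.64 and 0.48 at 15 ppm after 13 w. Noc4l, which works with Nop14 in early assembly, rose by 0.48 ± 0.11 (adjusted p = 0.00467) at 6 ppm and 0.68 ± 0.11 (adjusted p = 5.36e-06) at 10 ppm at 4 w.

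Late small subunit factors differed in size of change. Nob1, the nuclease that makes the final cut of the small subunit RNA, rose by 0.26, 0.32 and 0.32 at 15 ppm, and its partner Pno1 by 0.43, 0.70 and 0.75. The helicase gene Ddx10 was the small subunit factor with the smallest change at each time. It read 8.83, 8.81, 8.73 and 8.7 at 0 ppm and 8.81, 8.94, 8.96 and 8.7 at 15 ppm after 5 d, with overlap, and changed by 0.09 ± 0.09 (adjusted p = 0.509). After 13 w Ddx10 read 8.82, 8.65, 8.68 and 8.8 at 0 ppm and 8.96, 9.15, 9.06 and 9.04 at 15 ppm, without overlap, and rose by 0.31 ± 0.09 (adjusted p = 0.003). The U3 proteins Imp3 and Imp4 rose by 0.48 and 0.46 at 15 ppm after 13 w, less than the median of the small subunit factors. The remaining members of this class changed at 15 ppm at 5 d, 4 w and 13 w as follows, every value called. Wdr75 of the early complex rose by 0.60, 0.77 and 0.80 and the partners Nop14 and Noc4l by 0.51, 0.67 and 0.69 and by 0.65, 0.90 and 0.80. The GTPase gene Bms1 rose by 0.39, 0.47 and 0.53 and its relative Tsr1, which acts late, by 0.41, 0.61 and 0.74. Bysl, needed for small subunit maturation, rose by 0.73, 0.74 and 0.89, and the helicase gene Ddx52 by 0.83, 0.67 and 0.65.

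Of the 15 large subunit factors 14 rose at 15 ppm after 5 d and all 15 at 4 w and 13 w, with medians of 0.70, 0.77 and 0.87. The shares of all genes called higher were 18.3%, 21.3% and 23.5%. Gnl3 (nucleostemin), a nucleolar GTPase known from stem and dividing cells, had the largest change among the 48 genes at 6 and 10 ppm after both 4 w and 13 w. At 5 d it read 9.52, 9.32, 9.32 and 9.3 at 0 ppm, 9.48, 10.1, 9.92 and 10.2 at 6 ppm and 10.67, 10.77, 10.43 and 10.08 at 15 ppm. At 4 w it read 9.17, 9.26, 9.45 and 9.23 at 0.7 ppm, 9.8, 9.85, 9.78 and 10.22 at 6 ppm and 10.43, 10.26, 10.75 and 10.74 at 15 ppm. At 13 w it read 9.39, 9.15, 9.32 and 9.54 at 0 ppm, 10.11, 10.23, 9.92 and 9.81 at 6 ppm and 10.3, 10.65, 10.81 and 10.58 at 15 ppm. Only the 6 ppm group of 5 d overlapped its reference, through 1 array at 9.48. Gnl3 rose by 0.56 ± 0.13 (adjusted p = 0.00417) at 6 ppm and 1.12 ± 0.13 (adjusted p = 6.41e-10) at 15 ppm at 5 d. The rise was 0.64 ± 0.13 (adjusted p = 0.00245) and 1.26 ± 0.13 (adjusted p = 2.93e-11) at those doses at 4 w, and 0.67 ± 0.13 (adjusted p = 3.3e-04) and 1.23 ± 0.13 (adjusted p = 2.44e-11) at 13 w.

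Mrto4, whose yeast relative holds the place of a stalk protein on the growing large subunit, read 8.92, 8.64, 8.94 and 8.89 at 0 ppm and 9.8, 10.11, 10.41 and 10.21 at 15 ppm after 13 w. The groups did not overlap, and Mrto4 rose by 1.29 ± 0.14 (adjusted p = 3.11e-11), 2.44-fold, and by 1.15 ± 0.14 at 5 d and 1.14 ± 0.14 at 4 w. A dimmer probe set of Mrto4 gave smaller changes of 0.385, 0.559 and 0.643 at 15 ppm at 5 d, 4 w and 13 w. The size of the rise thus holds for the probe set used. Pes1, Bop1 and Wdr12, the 3 proteins of the PeBoW complex, all rose at 10 and 15 ppm at each time. Wdr12 read 8.3, 8.17, 8.28 and 8.3 at 0 ppm, 8.88, 8.98, 8.75 and 8.78 at 6 ppm and 9.22, 9.44, 9.15 and 9.28 at 10 ppm after 13 w. Both exposed groups were above 0 ppm, by 0.58 ± 0.12 (adjusted p = 5.2e-04) and 1.00 ± 0.12 (adjusted p = 2.58e-09). At 15 ppm after 13 w Wdr12 rose by 1.16, Bop1 by 1.07 and Pes1 by 0.68. Rrs1, a factor for adding a small ribosomal RNA to the large subunit in yeast, rose by 0.61 ± 0.12 (adjusted p = 0.00102) at 6 ppm after 5 d and by 1.13 ± 0.12 at 15 ppm after 13 w. The RNA methyltransferase genes Nop2 and Ftsj3 rose by 0.95 and 1.09 at that dose and time. At 15 ppm at 5 d, 4 w and 13 w the helicase gene Ddx18 rose by 0.68, 0.74 and 0.81, and Ebna1bp2, a relative of yeast Ebp2, by 0.70, 0.50 and 0.55. Nip7, Noc2l and Nop16, further assembly factors of the large subunit, rose by 0.62, 0.56 and 0.75, by 0.58, 0.77 and 0.87 and by 0.65, 0.77 and 0.87. Noc3l had low signals, between 4.31 and 5.54 over all arrays, near the low end of the array, and was called at 15 ppm at all 3 times. The filter at a group mean of 6 leaves it out, so its differences hold for these low signals only.

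Rrp1b stood apart from the rest. At 5 d it read 9.36, 9.31, 9.16 and 9.26 at 0 ppm, 9.21, 9.61, 9.65 and 9.52 at 10 ppm and 9.31, 9.31, 9.17 and 9.0 at 15 ppm. The 15 ppm arrays were within or below the 0 ppm range, and 3 of the 4 arrays of 10 ppm were above it. The change was 0.23 ± 0.08 (adjusted p = 0.0434) at 10 ppm, called, and -0.07 ± 0.08 (adjusted p = 0.522) at 15 ppm, not called and the one negative value of the 48 genes at 15 ppm. At 13 w Rrp1b read 9.13, 8.97, 9.07 and 9.23 at 0 ppm and 9.6, 9.55, 9.66 and 9.54 at 15 ppm, without overlap, and rose by 0.48 ± 0.08 (adjusted p = 1.1e-06). Its other probe sets did not give this pattern: 1 changed by 0.24, -0.25 and 0.09 and the other by 0.27, 0.25 and 0.42 at 5 d, 4 w and 13 w, so the pattern rests on the probe set used.

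The genes differed in the lowest dose at which they were called, although some lay close to the threshold. Called higher at 6 ppm at all 3 times were 8 genes, against 1.18% of all genes: Nop56, Nop58, Gar1, Ddx21, Heatr1, Nop2, Gnl3 and Ftsj3. Called at 6 ppm at no time were 14: Polr1a, Polr1c, Fbl, Rrp9, Nop10, Nhp2, Nolc1, Imp4, Ddx10, Ddx52, Nob1, Pes1, Bop1 and Nop16. The 2 sets overlap in size of change: at 4 w and 6 ppm Bop1 changed by 0.40 ± 0.13 (adjusted p = 0.0802), not called, and Nop56 by 0.39 ± 0.11 (adjusted p = 0.0367), called. At 15 ppm 45 genes were called higher at all 3 times, against 11.7% of all genes, and the exceptions were Ddx10, Polr1a and Rrp1b. Single animals moved these counts: leaving out animal 298 or animal 300 of the 6 ppm group turned the 20 calls after 5 d into 12 or 8. At 4 w the 14 calls became 7, 8 or 9 when animal 242, 243 or 245 of the 0.7 ppm group was left out, and 2 when animal 310 of the 6 ppm group was. On the arrays of 6 ppm after 5 d the difference between the 3' and 5' probe sets of the beta-actin control was 2.61 ± 0.17 (SD, n = 4), against 1.71 ± 0.20 at 0 ppm. With that difference as a covariate 20 genes were called at 6 ppm after 5 d, as many as without it. After 5 d at 15 ppm it was 2.47 ± 0.08 (n = 4), and 45 genes were called with the covariate and without it.

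From 10 to 15 ppm some genes rose further. At 5 d 6 of 48 were higher at 15 than at 10 ppm, against 7.18% of all genes, and 1 was lower, against 8.0%. At 4 w 17 were higher, against 5.11%, and at 13 w 7, against 8.55% of all genes. At both times 0 were lower, against 1.18% and 4.07%. The counts at 5 d and 13 w exceeded the share of all genes by few genes, and nothing is read from them. Nhp2 was higher at each time, by 0.55 ± 0.12 (adjusted p = 7.53e-04) at 5 d, 0.45 ± 0.12 (adjusted p = 0.0147) at 4 w and 0.48 ± 0.12 (adjusted p = 0.00479) at 13 w, without overlap of the arrays. At 5 d Rrp9, Nop56, Ebna1bp2 and Ddx18 were also higher, by 0.41, 0.41, 0.37 and 0.30, while Rrp1b was lower, at -0.30 ± 0.08 (adjusted p = 0.0059). At 4 w Mybbp1a led with 0.47 ± 0.10 (adjusted p = 0.00369), followed by Mrto4 at 0.47, Wdr43 at 0.45 and Wdr12 at 0.44. At 13 w Rrp12, Mybbp1a and Bop1 were higher by 0.45, 0.40 and 0.40. These counts moved with single animals. The 7 calls at 5 d became 4 when animal 324 of 10 ppm was left out and 15 when animal 359 of 15 ppm was, and the 17 at 4 w became 1, 2, 3 and 3 without animals 331, 336, 368 and 369. The 7 at 13 w became 4, 3, 4, 2 and 3 without animals 341, 348, 377, 378 and 379, and 20 without 375.

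Across the 48 genes the change after 5 d correlated with that after 13 w at r = 0.83 (rho = 0.83), and across all genes at r = 0.58 (rho = 0.61). For 5 d and 4 w the values were r = 0.89 (rho = 0.88) and r = 0.78 (rho = 0.76), and for 4 w and 13 w they were r = 0.89 (rho = 0.89) and r = 0.87 (rho = 0.82), so the gap to all genes was small in the last pair. These comparisons share no arrays, and genes are not independent replicates. The test of the difference between the 2 times called 4 of the 48 genes at 15 ppm, all with the larger change at 13 w, against 9.21% of all genes in that direction and 6.09% in the other. They were Rrp1b (difference 0.56 ± 0.11, adjusted p = 2.59e-04), Rrp12 (0.51 ± 0.16, adjusted p = 0.0238), Noc3l (0.49 ± 0.17, adjusted p = 0.0356) and Utp15 (0.45 ± 0.14, adjusted p = 0.0216). The probe set used for Rrp12 changed by 0.64 at 5 d and 1.14 at 13 w. Its other probe sets changed by 0.38 and 0.45 at 5 d and by 0.64 and 0.48 at 13 w. The other probe set of Utp15 changed by 0.33 at 5 d and 0.76 at 13 w. The share of 4 in 48 was near that of all genes. At 6 and 10 ppm limma called 0 of the 48 in the difference of 13 w and 5 d, against 0.0% and 0.00703% of all genes. At an unadjusted p under 0.05, 1 and 0 passed, against 10.5% and 5.88%. With 0.7 ppm as reference at both times, 0 were called at 15 ppm for 4 w minus 5 d and for 13 w minus 4 w, against 3.45% and 0.0633% of all genes. At an unadjusted p under 0.05, 6 and 2 passed, against 15.9% and 10.5%. Leaving out animal 359 of 5 d or animal 378 of 13 w, both of 15 ppm, turned the 4 calls into 1, while leaving out animal 377 or 375 gave 2 or 7. The 0 for 4 w minus 5 d became 1 without animal 356 or animal 359.

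**Figure D3:**
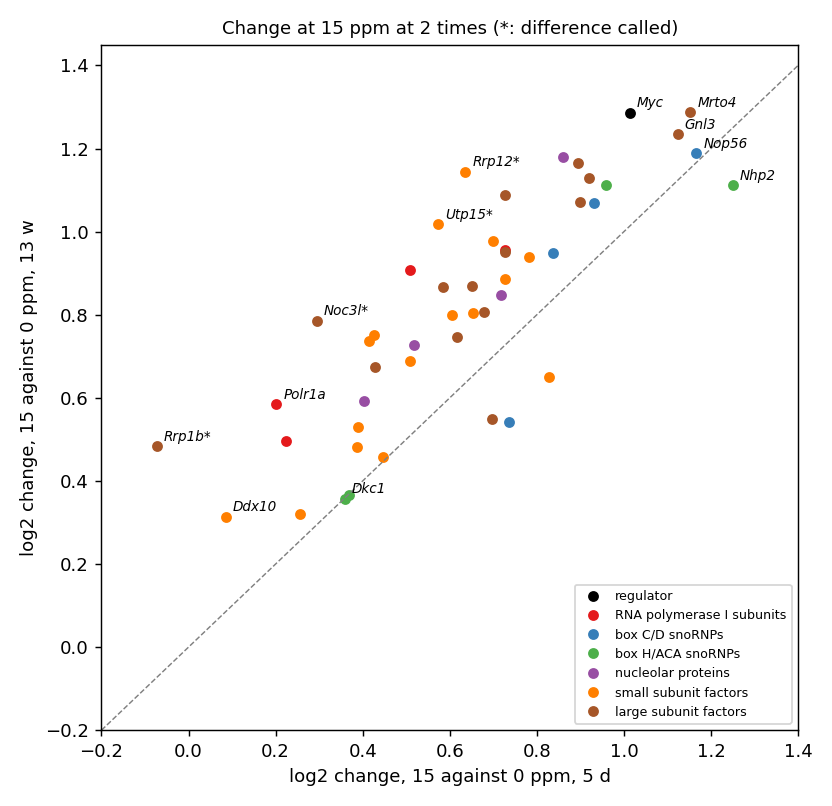
Log2 change at 15 ppm against 0 ppm after 5 d (x axis) and after 13 w (y axis) for the 48 ribosome biogenesis genes, coloured by role, with the line of equal change dashed; an asterisk marks a called difference between the times. Most points lie above the line, and the 4 marked genes are Rrp1b, Rrp12, Noc3l and Utp15.

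Animals of 1 group differed in these genes as a block. At 15 ppm after 5 d, animal 359 had the lowest of the 4 signals for 46 of the 48 genes, and for 36.0% of all genes. At 10 ppm after 5 d it was animal 324 for 47 genes (34.8% of all genes), at 6 ppm after 5 d animal 295 for 46 (30.9%), and at 15 ppm after 13 w animal 375 for 43 (37.0%). At 6 ppm after 4 w animal 310 had the highest signal for 43 genes (28.7% of all genes) and at 15 ppm after 13 w animal 378 for 43 (33.0%). The array means over the 48 genes ran from 9.42 to 9.87 at 15 ppm after 5 d and from 8.98 to 9.11 at 0 ppm, so even the lowest exposed animal was above the highest control. At 6 ppm after 5 d they ran from 9.10 to 9.50, so that the lowest animal fell within the 0 ppm range. Animals 359, 324, 295 and 375 also had the lowest mean of the 28 mitosis and S phase genes in their groups, at 8.79, 8.57, 8.17 and 8.93. Animal 378 had the highest such mean in its group, at 9.33. Animal 310 did not, at 8.19, below animal 307 of the same group at 8.40. No RNA integrity number was given for animals 324 and 295; those of 359 and 375 were 8.1 and 8.6. Without animal 295 the calls at 6 ppm after 5 d were 29, and without 324, 359 or 375 the calls at 10 ppm after 5 d, 15 ppm after 5 d and 15 ppm after 13 w were 45, 45 and 48.

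Further genes of the pathway rose as well, while the ribosomal proteins themselves shifted little. Of 102 other factors of ribosomal RNA processing and assembly, 69, 76 and 82 were higher at 15 ppm at 5 d, 4 w and 13 w and 3, 1 and 1 lower, against 18.3%, 21.3% and 23.5% of all genes higher, with medians of 0.34, 0.40 and 0.49. Lyar, a nucleolar protein of growing cells, rose by 1.21 ± 0.12, 1.32 ± 0.12 and 1.40 ± 0.12, and Tsr2, an escort of a small subunit protein, fell by 0.29 ± 0.11, 0.37 ± 0.11 and 0.44 ± 0.11. Of 42 cytosolic ribosomal protein genes 19, 25 and 32 were higher and 0 lower, but with medians of only 0.10, 0.12 and 0.14. Their mean signals, with group means of 13.4 to 13.5 at 15 ppm, lay near the top of the array's range, where the highest value was 15.37, and the part of this in the small changes was not tested. With each array centred on its median the counts were 10, 16 and 22, and with cyclic loess 29, 30 and 37, so they depended on the scaling. The shares of all genes under these scalings are not given here.

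Of 28 other subunits and factors of RNA polymerases I and III, 10, 11 and 18 were higher and 1, 1 and 3 lower at 15 ppm at 5 d, 4 w and 13 w. Polr3g, a subunit of RNA polymerase III found in proliferating and stem cells, rose by 0.68 ± 0.13, 1.11 ± 0.13 and 1.51 ± 0.13. Maf1, the repressor of RNA polymerase III, fell by 0.30 ± 0.07, 0.31 ± 0.07 and 0.56 ± 0.07 at the 3 times. Of 12 partners and relatives of Myc 1, 2 and 3 were higher and 3, 4 and 4 lower. The shares of all genes were 18.3%, 21.3% and 23.5% higher and 19.5%, 16.1% and 20.6% lower. The counts of the 12 partners and relatives of Myc differed from these shares by few genes, and nothing is read from them. Mxd1, which competes with Myc for MAX, rose by 1.13 ± 0.21, 0.76 ± 0.21 and 0.99 ± 0.21, while its relative Mxi1 fell by 0.52, 0.42 and 0.48.

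Enzymes of nucleotide synthesis and growth behaved more like the biogenesis genes. Of 23, 17, 21 and 20 were higher at 15 ppm at 5 d, 4 w and 13 w and 0 lower, with medians of 0.58, 0.69 and 0.74. The shares of all genes, for this list and the next, were 18.3%, 21.3% and 23.5% higher and 19.5%, 16.1% and 20.6% lower. Odc1, the first enzyme of polyamine synthesis, rose by 0.98 ± 0.09, 1.12 ± 0.09 and 1.17 ± 0.09. Of 28 genes of mitosis and S phase 26, 26 and 27 were higher and 1 lower at each time, with medians of 1.17, 1.48 and 1.66. The mitotic kinase gene Cdk1 rose by 1.44 ± 0.13, 1.75 ± 0.13 and 2.00 ± 0.13, and the one lower gene was Aurkb at -0.62 ± 0.16, -0.63 ± 0.16 and -0.89 ± 0.16.

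**Figure D4:**
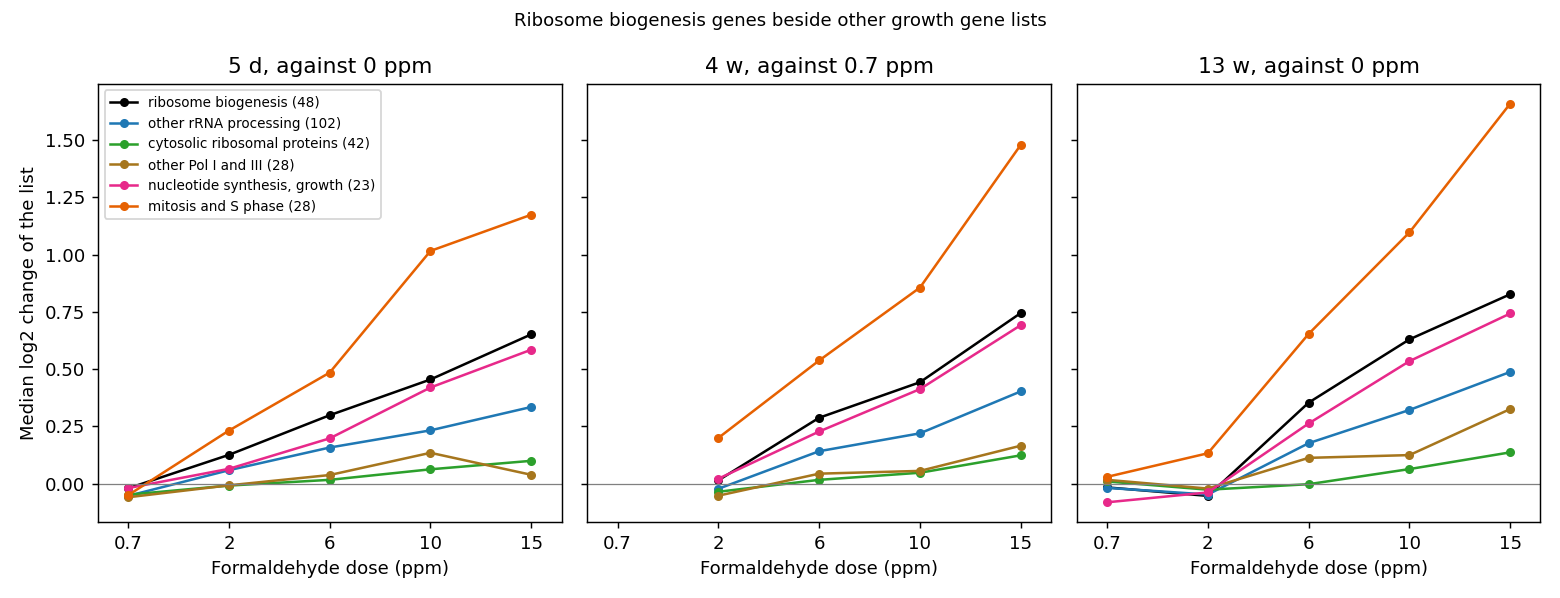
Median log2 change of the 48 ribosome biogenesis genes and of 5 other growth lists (number of genes in brackets) by formaldehyde dose in ppm, after 5 d and 13 w against 0 ppm and at 4 w against 0.7 ppm. At 15 ppm the mitosis and S phase median is the highest at each time and that of the ribosomal proteins stays at 0.10 to 0.14.

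Markers of cell types moved with dose on the same arrays, and not in the same way at each time. At 15 ppm after 5 d all 8 neutrophil markers were called higher, with a median change of 2.63, and their array means ran from 8.88 to 9.21 against 6.32 to 7.26 at 0 ppm. Of 14 macrophage and dendritic cell markers 8 were higher (array means 9.80 to 10.46 against 8.78 to 9.17) and of 14 lymphocyte markers 7 (6.88 to 8.05 against 6.28 to 6.69). At 15 ppm after 13 w 2 of 8 neutrophil markers were higher, and 6 of 14 macrophage and dendritic cell and 7 of 14 lymphocyte markers were lower, with array means of 8.11 to 8.48 and 6.10 to 6.49 against 8.43 to 8.75 and 6.54 to 7.21. The shares of all genes at 15 ppm were 18.3% higher after 5 d, and 23.5% higher and 20.6% lower after 13 w. The 2 of 8 neutrophil markers at 13 w were near the share called higher. The 48 biogenesis genes were all called higher on those 13 w arrays, with the median of 0.83. At 6 ppm after 5 d, where 20 of the genes were called, the neutrophil, macrophage and lymphocyte medians were -0.06, -0.46 and -0.05.

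Epithelial markers moved at all times. Of 10 basal and squamous markers 6, 8 and 9 were higher at 15 ppm at 5 d, 4 w and 13 w and 1, 0 and 0 lower, and their array means at 13 w ran from 13.03 to 13.43 against 10.98 to 11.13 at 0 ppm. Of 12 ciliated markers 5, 7 and 11 were lower and 0 higher, with array means of 8.47 to 9.17 against 9.38 to 9.82 at 13 w. Of 8 fibroblast markers 0, 1 and 4 were lower and 1 higher at each time, and of 7 olfactory markers 0 were called at 15 ppm at any time, where array means at 13 w ran from 8.74 to 11.95 against 9.36 to 11.91. The shares of all genes at 5 d, 4 w and 13 w were 18.3%, 21.3% and 23.5% higher and 19.5%, 16.1% and 20.6% lower. The fibroblast marker called higher at each time did not exceed these shares. The RNA integrity number was 7.68 ± 0.29 (SD, n = 4) at 0 ppm and 8.33 ± 0.33 (n = 4) at 15 ppm after 5 d. At 15 ppm after 13 w it was 8.90 ± 0.36 (n = 3), and with that number as a covariate the calls at 15 ppm were 42 after 5 d and 46 after 13 w. The part of the other cell types in the changes of the biogenesis genes was not tested.

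**Figure D5:**
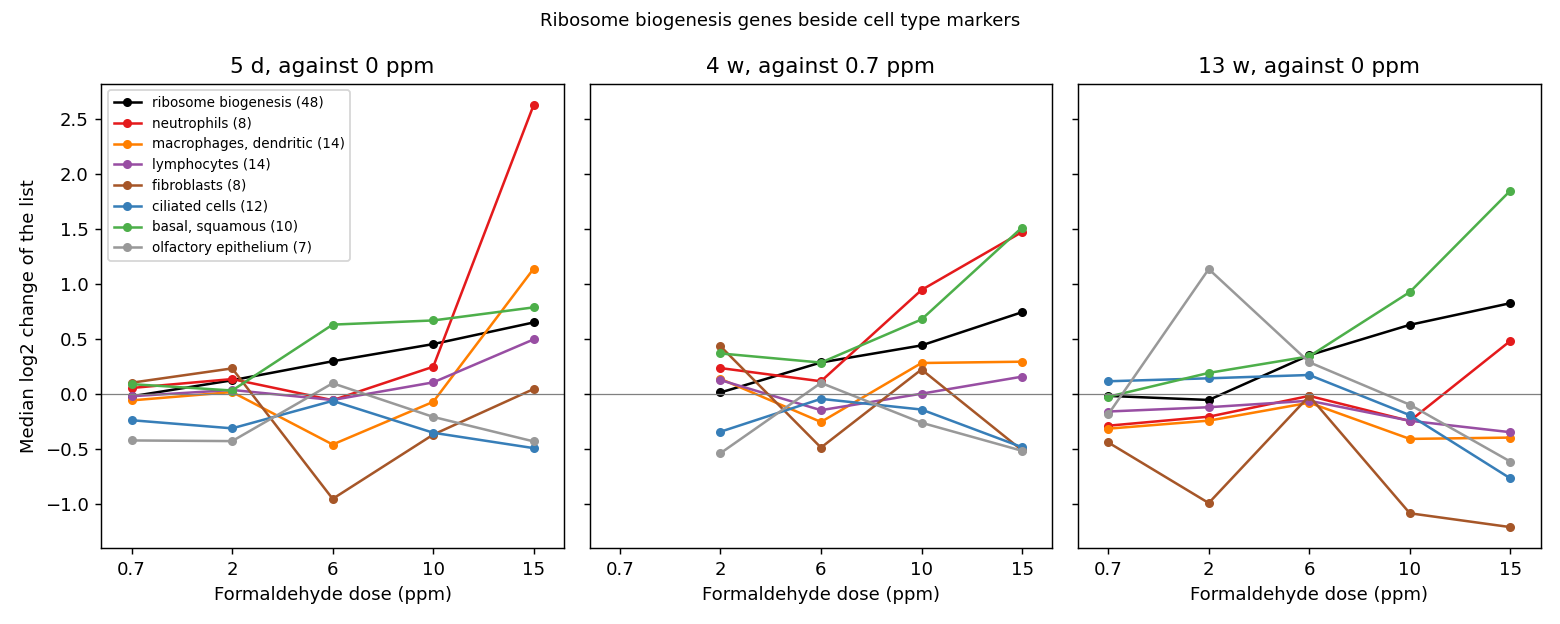
Median log2 change of the 48 ribosome biogenesis genes and of 7 lists of cell type markers (number of genes in brackets) by formaldehyde dose in ppm, in the same comparisons. At 15 ppm the neutrophil median falls from 2.63 at 5 d to 0.48 at 13 w, while that of the biogenesis genes is 0.65 and 0.83.

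Other probe sets of the same genes mostly moved the same way. Of the 48 genes 12 had 2 or more probe sets, and of their 16 other probe sets 12 had a positive change at 15 ppm at all 3 times. Among these 12 was that of Ddx21, which changed by only 0.05 after 5 d. Besides 1 of Rrp1b and 1 of Nolc1, exceptions were a dimmer probe set of Ddx18, at 0.81, -0.03 and 0.55 at 5 d, 4 w and 13 w, and one of Wdr75, at 0.34, -0.29 and 0.34.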

How the data were processed

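RMA (version not given in the sources used here) and GCOS 1.0, per the submitters' processing notes, gave the log2 signals deposited by the authors, which were used without further scaling. Of 31099 probe sets 20826 named 1 gene, 436 several and 9780 none, and 57 were array controls; only the first were used. The highest of several probe sets by mean over all arrays stood for a gene (4525 of 14217 genes). RMA shrinks differences near background and near the top of the range. All 68 arrays entered a linear model with a mean for each group in limma 3.58.1 under R 4.3.3 (lmFit, eBayes; 51 residual and 2.85 prior degrees of freedom), and p was adjusted by Benjamini-Hochberg within each comparison; the median SE was 0.104. The fit was tested on simulated data. The number of animals limits the precision. The text names the up to 5 called members with the largest changes in each direction per comparison, and up to 4 genes per other list by smallest p or called against its trend; members named for small or contrary values were chosen after their values were seen. The members and lists were chosen with earlier results of these data known. For 19 of the 20 samples of 4 w 1 label field gives 5 days, and the title and time tag were followed; the series text writes 1 week for the 5 d of the labels. Promoters came from RefSeq, build GRCr8. Alternatives were median centring, cyclic loess, a signal filter at a group mean of 6, the mean of all probe sets, fitting only the times compared, array weights, the RNA integrity number or the beta-actin difference as covariates, 0.7 ppm as reference, and leaving out each animal.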

Additional observations from a re-analysis of the deposited data

Results flagged for a closer look

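In 4 genes the change at 15 ppm differed between 13 w and 5 d in the test of the difference itself, as given above: Rrp1b by 0.56, Rrp12 by 0.51, Noc3l, on low signals, by 0.49 and Utp15 by 0.45 on the log2 scale. The share of 4 in 48 was near that of all genes, so these 4 are given as values only. The sizes for Rrp1b and Rrp12 hold for the probe set used. In 16 named genes, 14 of 272 groups of 4 arrays held 1 array far from the other 3, by Dixon's criterion for 4 values at 95%. Chance gives such an array in about 1 in 20 groups, so this number is near what chance gives. At 10 ppm Nop56 had animal 346 at 12.19 after 13 w (others 11.72 to 11.74) and animal 331 at 11.43 after 4 w (others 11.79 to 11.86), and Gar1 had animal 324 at 9.34 after 5 d (others 9.79 to 9.87). Also at 10 ppm, after 13 w, Ddx21 had animal 341 at 11.08 (others 11.34 to 11.39) and Rrs1 animal 346 at 10.27 (others 9.95 to 9.97). At 6 ppm after 4 w Gnl3 had animal 310 at 10.22 (others 9.78 to 9.85), the animal without which the calls at that dose and time fell to 2. At 2 ppm animal 273 of 4 w was low for Polr1b, at 7.69 (others 7.90 to 7.94), and for Rrp12, at 7.38 (others 7.73 to 7.76). At the same dose Dkc1 had animal 287 at 9.49 after 13 w (others 9.40 to 9.41) and Noc4l animal 268 at 8.40 after 5 d (others 8.12 to 8.15). At 0 ppm after 13 w animal 226 was low for Wdr12, at 8.17 (others 8.28 to 8.30), and for Mrto4, at 8.64 (others 8.89 to 8.94). Gnl3 had 0 ppm animal 204 at 9.52 after 5 d (others 9.30 to 9.32), and Rrp1b had 0.7 ppm animal 257 at 9.05 after 13 w (others 8.97).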

How the results depend on the processing

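No paired analysis was possible because the labels number each animal once and the groups share no replicate numbers. The counts of called biogenesis genes at 10 and 15 ppm against the reference, and the counts of 0 at 0.7 and 2 ppm, stayed within 1.5 times of those reported under every alternative run; leaving out 1 animal gave 36 to 45, 35 to 42 and 43 to 45 at 10 ppm and 42 to 45, 46 to 48 and 47 to 48 at 15 ppm after 5 d, 4 w and 13 w. The counts at 6 ppm depended on the setting. After 5 d (20) it was 11 with only that time fitted, 33 with array weights and 31 over arrays with an RNA integrity number, and 8 to 29 leaving out 1 animal. At 4 w (14) it was 26 with cyclic loess, 7 with only that time fitted and 8 with array weights, and 2 to 14 leaving out 1 animal. After 13 w (32) it was 16 with the RNA integrity number as covariate, and 22 to 31 leaving out 1 animal. For 15 against 10 ppm after 5 d (7) it was 14 with cyclic loess, 4 with that covariate, 4 over the arrays with that number and 13 with the beta-actin covariate (4 to 15 leaving out 1 animal). At 4 w (17) it was 9 with only that time fitted and 11 with the integrity covariate (1 to 25 leaving out 1 animal). At 13 w (7) it was 3 with median centring, 12 with only that time fitted, 27 with array weights and 4 with the integrity covariate (2 to 20 leaving out 1 animal). The 4 differences between 13 w and 5 d at 15 ppm became 8 with array weights, 1 with the integrity covariate, 1 over the arrays with that number and 7 with 0.7 ppm as reference, 6 of these larger at 13 w and 1 smaller (1 to 7 leaving out 1 animal). The 0 for 4 w minus 5 d became 1 with the beta-actin covariate, smaller at 4 w (0 to 1 leaving out 1 animal). The cause of these shifts was not tested, except that fewer arrays entered the fits of single times and of arrays with an integrity number. Of the 74 named values 67 were called; over 703 recomputed values under other settings 667 kept their side of the threshold, 34 of the called ones lost the call and 2 gained one, and over 624 with 1 animal left out 67 lost it; 0 changed sign.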
